A study of Mus musculus with 12 samples.

Results

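The genes described here are the alpha and gamma tubulins, 7 genes of the 46072 in the deposited table: the 5 alpha tubulins Tuba1a, Tuba1b, Tuba1c, Tuba4a and Tuba8, and the 2 gamma tubulins Tubg1 and Tubg2. They were found by matching the table's Ensembl identifiers to these symbols, and all 7 were present and had an adjusted p-value in every comparison. RNA was sequenced from 3 myeloid cell types grown from bone marrow taken at an age of 6 to 8 weeks from C57BL/6J mice, with 4 libraries each and 12 in all. Osteoclasts, which are large bone-resorbing cells with many nuclei, formed in RANKL (50 ng/ml) plus M-CSF (30 ng/ml), a growth factor of the macrophage lineage, after which Accutase was used to take away cells with a single nucleus. Immature dendritic cells, which take up and present antigen, were grown with GM-CSF (20 ng/ml), and macrophages with M-CSF alone (30 ng/ml). Precursors of osteoclasts and macrophages spent their first 5 days in more M-CSF (100 ng/ml), and differentiation of the 3 cell types lasted 8 to 10 days. No genotype or treatment beyond these growth factors is named for any group, and the 3 cultures of an experiment came from the same mouse.

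Microtubules are hollow polymers of dimers, each of an alpha and a beta tubulin, and the several alpha tubulin genes (isotypes) encode nearly the same protein, apart from its acidic tail. In most alpha tubulins the tail ends in a tyrosine that enzymes remove and put back, and microtubules that carry or lack it are bound by different motors and plus-end proteins. Gamma tubulin is not part of the tube: in a ring complex with the Tubgcp proteins it seeds new microtubules at centrosomes and other organising sites. In osteoclasts microtubules are known to support the ring of podosomes that seals the cell to bone, and microtubule organisation moves away from centrosomes as precursors fuse.

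The tail region is printed because its last codon differs between Tuba1c, Tuba4a and Tuba8, whose levels are compared below. Tubg1 and Tubg2 have the same last codon and were identical at 56 of their last 60 coding bases. The last 60 bases of the coding sequence are given for 5 members, 5′ to 3′ on the coding strand, from GENCODE M21 transcripts on GRCm38, with the last codon before the stop codon in capitals.
Tuba1c: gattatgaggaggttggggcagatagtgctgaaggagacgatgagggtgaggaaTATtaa
Tuba4a: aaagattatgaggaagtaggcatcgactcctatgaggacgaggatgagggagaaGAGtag
Tuba8: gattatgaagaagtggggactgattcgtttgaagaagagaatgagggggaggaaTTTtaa
Tubg1: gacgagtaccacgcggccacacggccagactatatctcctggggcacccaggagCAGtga
Tubg2: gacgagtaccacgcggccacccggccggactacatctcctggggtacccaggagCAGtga

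TAT is a codon for tyrosine, GAG for glutamate, TTT for phenylalanine and CAG for glutamine. Tuba1c encodes a final tyrosine, as Tuba1a and Tuba1b are known to, whereas Tuba4a and Tuba8 do not. Tuba1a, Tuba1b and Tuba1c are called the Tuba1 trio here. The coding sequences of Tuba1a and Tuba1b were identical at 98.3% of aligned bases. Tuba4a matched Tuba1a at 84.7% and Tuba8 matched it at 79.2% of aligned coding bases. Tubg1 and Tubg2 were identical at 93.3%.

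The Tuba1 trio lies together on chromosome 15 of GRCm38, with Tuba1b at chr15:98931425-98934565 and Tuba1a at chr15:98949837-98953703 on the minus strand and Tuba1c at chr15:99029891-99038110 on the plus strand. Tuba4a is at chr1:75214228-75219865 on the minus strand and Tuba8 at chr6:121210696-121226854 on the plus strand. Tubg1 at chr11:101119938-101126419 and Tubg2 at chr11:101155907-101161787 are neighbours on the plus strand. Reads were single and 50 bases long. Without regard to strand, a read can be assigned to 1 gene only from a 50-base window found in no other annotated gene. The share of such windows was 24.5% for Tuba1a, 16.9% for Tuba1b, 39.0% for Tuba1c and 51.2% for Tuba4a. It was 85.3% for Tuba8, 85.9% for Tubg1 and 85.7% for Tubg2. Tuba4a shared 1330 exact windows with Stk16 and Tuba8 shared 321 with Gm15856, genes that overlap them on the opposite strand. Reads from these windows differ between the 2 genes only in strand. No exact window of Tuba4a was shared with the Tuba1 trio or Tuba8. The handling of reads that fit several genes is not given here by any source, so the division of reads within the Tuba1 trio is uncertain. Of the 8 other genes that share at least 500 exact windows with 1 of the trio, 5 are in the table. Their highest mean was 162 normalised reads in osteoclasts, 99.0 in dendritic cells and 106 in macrophages, all for Gm5620.

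Values are the authors' means per cell type, in reads divided by a size factor for each library. These means summed over all genes to 24242540 in osteoclasts, 27731759 in dendritic cells and 25022062 in macrophages. The osteoclast, dendritic and macrophage marker lists each had their highest sum in the cell type they name. The 10 osteoclast markers summed to 332013 normalised reads in osteoclasts, 41774 in dendritic cells and 6137 in macrophages. Of these 10, 7 were called higher in osteoclasts than in dendritic cells, 0 lower and 3 not called. Those 3, Atp6v0d2, Dcstamp and Ocstamp, had higher means in dendritic cells (20465, 7666 and 2583) than in osteoclasts (17755, 4231 and 1589). The 10 dendritic markers summed to 454463 in dendritic cells against 8610 in osteoclasts and 5214 in macrophages, and the 10 macrophage markers to 273067 in macrophages against 131875 in osteoclasts and 89563 in dendritic cells. Dendritic cultures also held RNA of other marrow cells, with the 10 neutrophil markers at 15001, the 8 eosinophil markers at 10151 and the 10 mast cell and basophil markers at 787. The same 3 lists summed to 127, 402 and 76.2 in osteoclasts and to 107, 187 and 8.52 in macrophages.

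Abundant and rare members were mostly the same in the 3 cell types. Tuba1a, Tuba1b, Tuba1c, Tuba4a and Tubg1 were abundant everywhere, Tubg2 was near the limit of detection everywhere, and Tuba8 was found at more than a few reads in dendritic cells only. Per kilobase of the longest coding transcript, the summed alpha tubulin level was 4563 in osteoclasts, 3552 in dendritic cells and 2690 in macrophages, in normalised reads per kilobase. The summed alpha tubulin reads of osteoclasts, without length correction, were 1.73 times those of macrophages and 1.32 times those of dendritic cells, and those of dendritic cells were 1.31 times those of macrophages. These sums come from means, so they have no error between libraries. Gamma tubulin per kilobase was 634 in osteoclasts, 395 in dendritic cells and 385 in macrophages, and alpha exceeded gamma 7.2-fold in osteoclasts, 9.0-fold in dendritic cells and 7.0-fold in macrophages. The 6 beta tubulins Tubb5, Tubb4b, Tubb6, Tubb2a, Tubb2b and Tubb4a together were 3.88 times the alpha level per kilobase in osteoclasts, 3.62 times in dendritic cells and 3.88 times in macrophages.

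**Figure D1:**
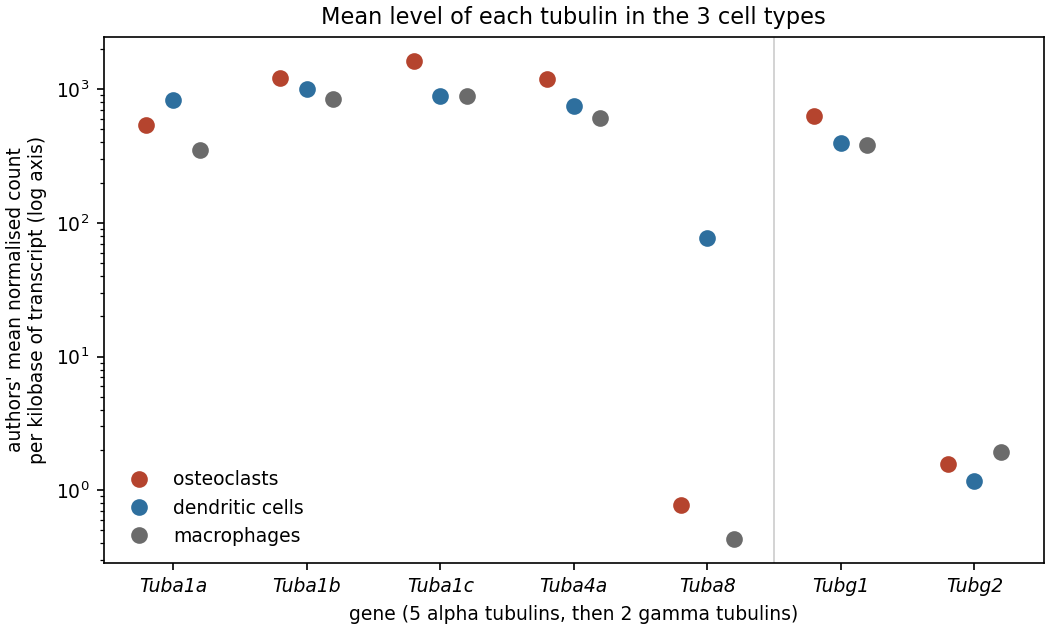
Authors' mean normalised count per kilobase of the longest coding transcript (log axis) for the 5 alpha and 2 gamma tubulins; each point is a cell type, and means have no error bar because the table gives none. Tuba8 stands at 77.4 in dendritic cells against 0.773 in osteoclasts and 0.432 in macrophages, and Tubg2 stays below 2 in all 3.

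Relative to the other cell types, Tuba1c and Tuba4a took their largest shares of alpha tubulin in osteoclasts and Tuba1a its largest in dendritic cells. In osteoclasts Tuba1c made up 35.8% of the summed alpha tubulin level per kilobase, Tuba1b 26.4%, Tuba4a 25.9% and Tuba1a 11.7%. In dendritic cells the order was Tuba1b at 28.4%, Tuba1c at 25.1%, Tuba1a at 23.2% and Tuba4a at 21.1%. Macrophages had the same order as osteoclasts, with Tuba1c at 33.2%, Tuba1b at 31.2%, Tuba4a at 22.6% and Tuba1a at 13%. Tuba8 was 2.18% of the alpha tubulin level in dendritic cells, against 0.0169% in osteoclasts and 0.0161% in macrophages. The isotypes that encode a final tyrosine together made up 74.0% in osteoclasts, 76.8% in dendritic cells and 77.4% in macrophages. The shares are a description of means and were not tested.

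Which isotype leads depended on how length was counted. Per 50-base window found in a single gene, Tuba1b led in all 3 cell types, at 45.1% in osteoclasts, 45.4% in dendritic cells and 50.3% in macrophages. With no length correction Tuba4a, whose transcript is the longest of the 5 at 2840 bases, led in osteoclasts at 34.7% and in dendritic cells at 29.0%, and Tuba1c led in macrophages at 31.6%. The order of the cell types was the same under all 4 ways of counting length for Tuba1a, Tuba1c and Tuba4a. The Tuba1a share was highest in dendritic cells, from 20.3% to 25.9%, against 9.99% to 13.9% in osteoclasts and 11.3% to 14.8% in macrophages. The Tuba4a share was highest in osteoclasts, from 14.5% to 34.7%, against 11% to 29.0% in dendritic cells and 11.9% to 30.9% in macrophages. The Tuba1c share was lowest in dendritic cells, from 17.3% to 25.1%, against 26.5% to 35.8% in osteoclasts and 23.2% to 33.2% in macrophages.

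**Figure D2:**
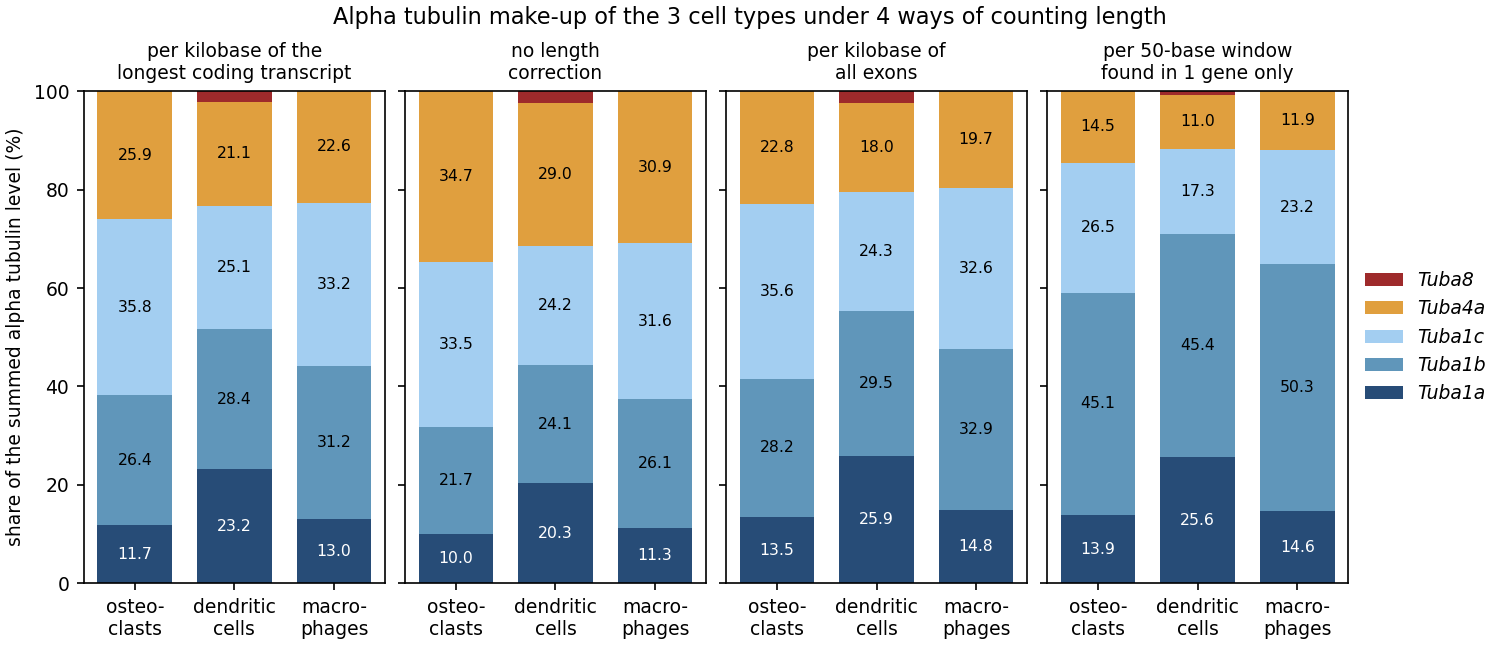
Share (%) of each isotype in the summed alpha tubulin level of each cell type, under 4 ways of counting length; bars are built from the authors' means and sum to 100%. The Tuba1a block is largest in dendritic cells in every panel and the Tuba4a block is largest in osteoclasts in every panel.

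Osteoclasts were compared with macrophages, which were grown in the same M-CSF without RANKL. The osteoclasts also had cells with a single nucleus taken away, so effects of RANKL and of this step cannot be told apart. Tuba1c, Tuba4a and Tubg1 were higher in osteoclasts, each by less than a doubling, and no member was lower. Of the 17822 genes with an adjusted p in this comparison, 29.3% were called at adjusted p under 0.05, 14.5% as higher and 14.7% as lower in osteoclasts. The 7 members gave 3 calls as higher and 0 as lower, a count read against those shares. Their median log2 fold change in the authors' deposited table was 0.60, against -0.03 over all genes tested.

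Tuba4a, which like Tuba8 has no encoded final tyrosine, had means of 3362 normalised reads in osteoclasts and 1728 in macrophages. Its log2 fold change in the authors' deposited table was 0.95 ± 0.24 (adjusted p = 0.000537), where ± is a standard error worked back from the p-value. Tuba1c, a broadly expressed isotype, had means of 3242 in osteoclasts and 1768 in macrophages, with 0.86 ± 0.27 on the log2 scale (the authors' deposited table, adjusted p = 0.00776). In bulk RNA, fewer cells of a type and less RNA per cell cannot be told apart.

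Tuba1a, the isotype best known from neurons, and Tuba1b, another broadly expressed one, had higher means in osteoclasts but were not called. Tuba1a had means of 967 in osteoclasts and 632 in macrophages, a log2 fold change of 0.60 ± 0.26 (the authors' deposited table, adjusted p = 0.0685). Tuba1b had means of 2103 in osteoclasts and 1461 in macrophages, a log2 fold change of 0.51 ± 0.31 (the authors' deposited table, adjusted p = 0.224). The errors of the trio's fold changes overlap, and given the shared windows no difference between Tuba1a, Tuba1b and Tuba1c in this contrast was tested.

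Osteoclasts were set against dendritic cells as the other end product grown from marrow. Tuba1c, Tuba4a and Tubg1 were again higher in osteoclasts, and Tuba8 was lower. This comparison shares the osteoclast libraries with the previous one, so the calls are not independent of it. Of 21217 genes with an adjusted p, 36.9% were called, 16.8% as higher and 20.1% as lower in osteoclasts, and the members gave 3 higher and 1 lower. Tuba1c had means of 3242 in osteoclasts and 1769 in dendritic cells, a log2 fold change of 0.86 ± 0.27 (the authors' deposited table, adjusted p = 0.00569). Tuba4a had means of 3362 in osteoclasts and 2124 in dendritic cells, a log2 fold change of 0.65 ± 0.24 (the authors' deposited table, adjusted p = 0.0188).

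Tuba1a had a lower mean in osteoclasts, 967, than in dendritic cells, 1486, and just missed the threshold with a log2 fold change of -0.61 ± 0.26 (the authors' deposited table, adjusted p = 0.0522). It was called, at an adjusted p of 0.0378, when the adjustment was limited to genes that reached 1 CPM in either cell type. Tuba1b had means of 2103 in osteoclasts and 1761 in dendritic cells, with 0.25 ± 0.31 on the log2 scale in the authors' deposited table (adjusted p = 0.591).

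Dendritic cells differed from macrophages in Tuba1a and Tuba8, both higher in dendritic cells. Of 20730 genes with an adjusted p, 36.7% were called, 20.3% as higher and 16.4% as lower in dendritic cells, and the members gave 2 higher and 0 lower. The authors list this pair as macrophages over dendritic cells, and the sign is turned round here. Tuba1a had means of 1486 in dendritic cells and 632 in macrophages, a log2 fold change of 1.21 ± 0.26 (the authors' deposited table, adjusted p = 2.11e-05). Tuba1c had means of 1769 in dendritic cells and 1768 in macrophages, 0.00 ± 0.27 on the log2 scale in the authors' deposited table. For Tuba1b and Tuba4a the log2 fold changes in the authors' deposited table were 0.26 ± 0.31 and 0.29 ± 0.24, with adjusted p = 0.575 and 0.373.

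**Figure D3:**
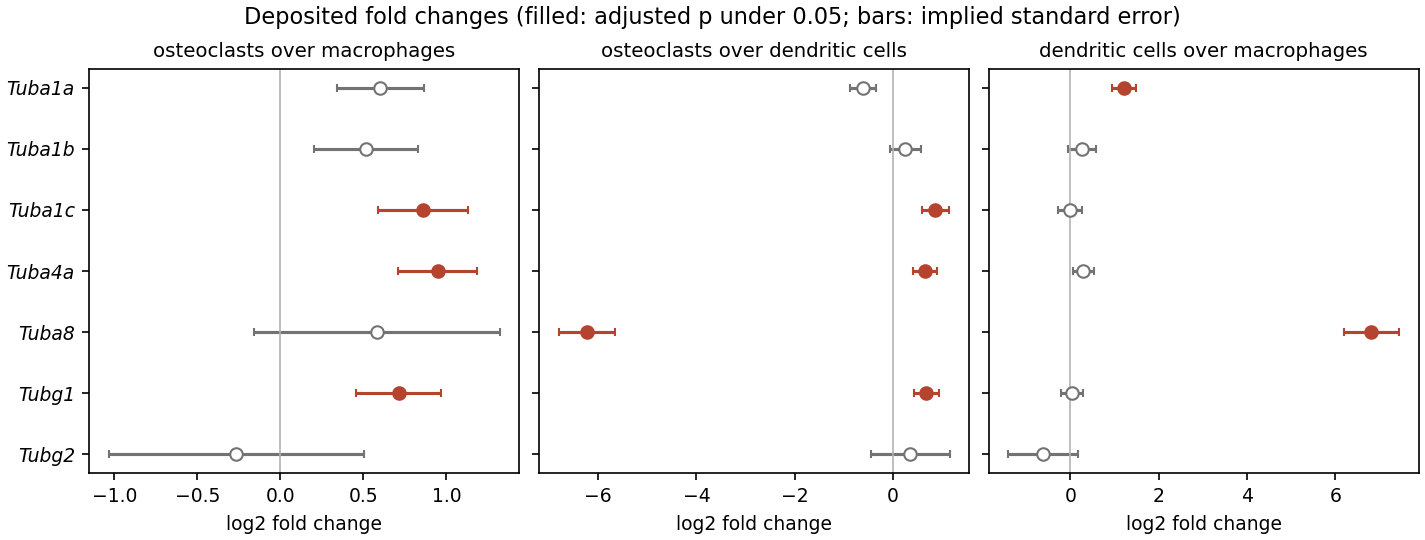
Deposited log2 fold change of each member in the 3 comparisons, with the first-named cell type on top of the ratio; filled points have adjusted p under 0.05 and bars are the implied standard error. Axes differ between panels because Tuba8 reaches -6.23 for osteoclasts over dendritic cells and 6.82 for dendritic cells over macrophages.

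For members with few enough reads, the whole reads of each library could be worked out from the 15 digits of the deposited means. A single set of 4 whole reads fitted the mean of Tuba8, Tubg1 and Tubg2 in all 3 cell types and of Tuba1a in osteoclasts and macrophages. The number of sets expected to fit by chance was 0.704 for Tubg1 in osteoclasts, the highest of these means, and at most 0.0758 for the others. A lone fit is the true one only if the size factors are right. The library values of Tubg1 in osteoclasts, and the tests that use them, are therefore the least certain. For Tuba1b, Tuba1c and Tuba4a, and for Tuba1a in dendritic cells, between 2 and 20 sets fitted, so no library values are given for these. Libraries are lettered a to d within a cell type from the lowest to the highest size factor, which ties them to no replicate number.

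Tuba8, an isotype described mainly in muscle, testis and brain, was a dendritic culture gene in these data. Its normalised reads in osteoclast libraries a to d were 1.01, 4.01, 0 and 1.99, against 288, 101, 158 and 154 in dendritic libraries and 1.97, 0.974, 0.974 and 0 in macrophage libraries. Every dendritic library was above every osteoclast and macrophage library, and dendritic library a was the highest of its group. The means were 1.75 ± 1.71 in osteoclasts, 175 ± 79.7 in dendritic cells and 0.978 ± 0.802 in macrophages (SD, n = 4 libraries each). In the authors' deposited table the log2 fold change was -6.23 ± 0.57 for osteoclasts over dendritic cells (adjusted p = 2.03e-26). For dendritic cells over macrophages it was 6.82 ± 0.63 (the authors' deposited table, adjusted p = 6.04e-26). Osteoclasts and macrophages did not separate, with overlapping libraries and 0.58 ± 0.74 on the log2 scale in the authors' deposited table (adjusted p = 0.622).

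Like Tuba8, its antisense neighbour and many, though not all, listed markers of other marrow cells were higher in dendritic cultures. Not all of those that were higher had the same order over the 4 libraries. Gm15856, an antisense transcript that shares 321 exact windows with Tuba8, had 70.8, 13.3, 31.6 and 50.9 normalised reads in dendritic libraries a to d and 0 in all osteoclast and macrophage libraries. The kit marks strand, but no source used here says whether the counting did, so reads of Tuba8 and Gm15856 may not have been kept apart. Gata2, a transcription factor of mast cells and megakaryocytes, had 508, 135, 168 and 112 in dendritic libraries a to d. It had between 7.05 and 13 in osteoclast libraries and between 2.92 and 6.82 in macrophage libraries. Kit, the receptor of mast cells and progenitors, had 261, 159, 187 and 56.0 in the dendritic libraries, at most 3.00 in osteoclast libraries and at most 1.97 in macrophage libraries. Library a was the highest for Tuba8, Gm15856, Gata2 and Kit, but other markers were ordered differently. Cpa3, the mast cell carboxypeptidase, had 348, 257, 386 and 403 in dendritic libraries a to d, and Ppbp, a platelet chemokine, had 529, 285, 687 and 136. Among markers with library values and a mean of at least 10, library a was the highest for 2 of 4 mast cell and basophil, 1 of 4 platelet and megakaryocyte, 2 of 3 eosinophil and 0 of 4 neutrophil markers. Library a was also the highest for 2 of 2 dendritic markers, Flt3 and Cd209a, and for 1 of 1 macrophage marker, Maf. Of the osteoclast and proliferating cell markers it was the highest for 0 of 1 and 0 of 4. Itga2b, the platelet integrin subunit, had between 73.5 and 143 in dendritic libraries, between 3.97 and 7.05 in osteoclast libraries and between 6.82 and 7.86 in macrophage libraries. Some listed markers were lower in dendritic cells than in osteoclasts, among them Tpsab1 (means 0 and 63.4) and Ccr3 (48.0 and 237). The 8 platelet and megakaryocyte markers summed to 6562 in dendritic cells, 2887 in osteoclasts and 5374 in macrophages. Pf4, 1 of these 8, had means of 2830 in dendritic cells and 3326 in macrophages. In dendritic cultures 2 of the 10 mast cell and basophil markers, 1 of the 8 platelet and megakaryocyte markers and none of the 10 neutrophil markers were at 0, and their part in the Tuba8 level was not tested.

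Tubg1, the gamma tubulin of nearly all cells, was higher in osteoclasts than in both other cell types. Its normalised reads in osteoclast libraries a to d were 1222, 874, 1090 and 1374, against 763, 524, 601 and 950 in dendritic libraries and 717, 789, 862 and 393 in macrophage libraries. The lowest osteoclast library, b, was above every macrophage library but below dendritic library d. The means were 1140 ± 212 in osteoclasts, 709 ± 189 in dendritic cells and 690 ± 207 in macrophages (SD, n = 4 libraries each). Relative to macrophages the log2 fold change of osteoclasts was 0.71 ± 0.26 (the authors' deposited table, adjusted p = 0.0212). Relative to dendritic cells it was 0.67 ± 0.26 (the authors' deposited table, adjusted p = 0.0247). Dendritic cells and macrophages overlapped, with 0.04 ± 0.26 on the log2 scale in the authors' deposited table (adjusted p = 0.934), and this direction turned round without dendritic library d or macrophage library d.

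Macrophage library d and dendritic library d, each at an end of its group for Tubg1, were at the same end for markers of dividing cells. Macrophage library d was the lowest of its group for Tubg1 and for the 3 of 10 such markers with library values. Aurka, a mitotic kinase that acts at centrosomes, had 1242, 705, 1226 and 296 normalised reads in macrophage libraries a to d. Ccnb1, the mitotic cyclin B1, had 1455, 769, 1337 and 285, and Plk1, the polo-like mitotic kinase, had 970, 610, 1173 and 187. Dendritic library d, the highest of its group for Tubg1, was the highest for 4 of 4 such markers with library values, among them Aurka at 1233, Ccnb1 at 1064 and Plk1 at 958. Without library d the macrophage mean of Tubg1 was 790. Every macrophage library was already below every osteoclast library, so leaving out library d could not change that. The 10 markers of proliferating cells summed to 29381 in osteoclasts, 19686 in dendritic cells and 22538 in macrophages. Of these 10, Bub1 was higher in osteoclasts in both osteoclast comparisons and the other 9 were not called, and the part of dividing cells in the Tubg1 level was not tested.

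Tuba1a had normalised reads of 1175, 806, 903 and 982 in osteoclast libraries a to d, against 819, 537, 849 and 325 in macrophage libraries. The groups overlapped, since macrophage libraries a and c exceeded osteoclast library b, and macrophage library d was again the lowest. The means were 967 ± 156 in osteoclasts and 632 ± 249 in macrophages (SD, n = 4 each). Without library d the macrophage mean was 735.

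Tubg2, a second gamma tubulin known mainly from brain, was close to the detection limit. It had 3.02, 1.00, 0.994 and 5.96 normalised reads in osteoclast libraries a to d, 1.03, 4.08, 0 and 3.05 in dendritic libraries, and 3.93, 1.95, 2.92 and 4.79 in macrophage libraries. The groups overlapped in all 3 comparisons, and no difference was detectable at this depth. Tubg1 made up 99.8% of gamma tubulin per kilobase in osteoclasts, 99.7% in dendritic cells and 99.5% in macrophages.

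An exact permutation test over libraries, two-sided on the difference of means, was run for the 10 comparisons of members with library values in both cell types. It cannot go below p = 0.0286 with 4 libraries against 4, and Tubg1 in osteoclasts against macrophages and Tuba8 in both comparisons with dendritic cells reached that smallest exact p. Adjusted over the 10 exact tests these became 0.0952, so none passed 0.05. For Tubg1 in osteoclasts against dendritic cells the exact permutation p was 0.0571 (adjusted 0.143), and for Tuba1a in osteoclasts against macrophages it was 0.0857 (adjusted 0.171). The 5 other exact permutation tests gave p from 0.314 to 0.914.

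**Figure D4:**
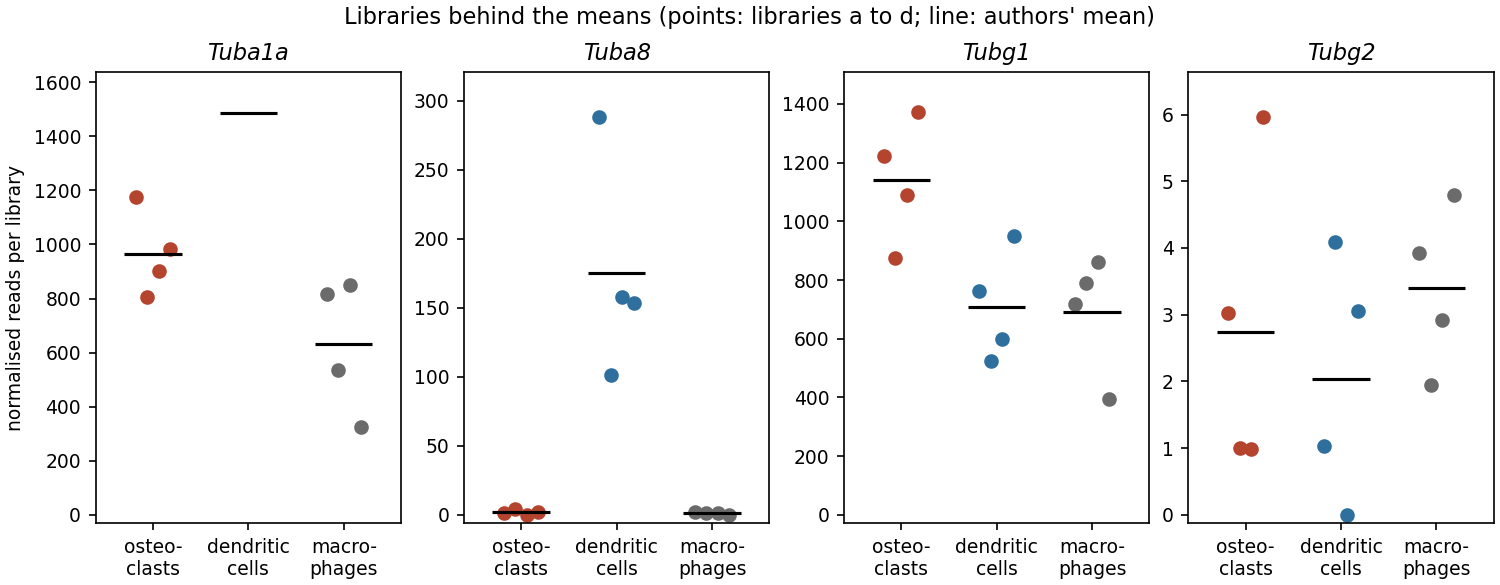
Normalised reads per library (points, libraries a to d from left to right) and the authors' mean (line) for Tuba1a, Tuba8, Tubg1 and Tubg2; linear axes that differ between panels. Tuba1a in dendritic cells has only its mean, 1486, because 2 sets of reads fitted it, and Tubg1 lies above every macrophage library in all 4 osteoclast libraries.

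The order of the cell types thus differed between members. Tuba1a ran from dendritic cells through osteoclasts to macrophages, and neither neighbouring pair in that order was called. Tuba1b ran from osteoclasts through dendritic cells to macrophages with no pair called. Tuba1c, Tuba4a and Tubg1 had osteoclasts first, called against both others, and dendritic cells and macrophages were not separated. Tuba8 had dendritic cells first, called against both others.

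The genes most like a member in pattern were ranked by distance. Likeness was measured as the distance between the pair of log2 ratios of means, osteoclasts over macrophages and osteoclasts over dendritic cells, among 11070 other genes above set levels (11071 for Tuba8), and it rests on 3 cell types only. Nearest to Tuba1c were Pfas, Nop2 and Airn, at distances of 0.0161, 0.0281 and 0.0308. Nearest to Tuba4a were Psmd10, Pdhb and Dut, at 0.0300, 0.0432 and 0.0520. Tuba8, which fell below the level set for the lowest cell type and was compared all the same, was nearest to Ace, Hsd11b1 and Clu, at 0.137, 0.356 and 0.420.

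Neighbouring genes within 5 kb were also read, of which Gm49450 and Gm41396 were not analysed here. Stk16, a kinase gene on the opposite strand that overlaps Tuba4a and shares 1330 of its windows, had means of 846 in osteoclasts and 835 in macrophages, and 0.02 ± 0.08 on the log2 scale in the authors' deposited table (adjusted p = 0.906). Retreg3, an autophagy receptor of the endoplasmic reticulum that starts 45 bases from Tubg1 on the other strand, was lower in osteoclasts than in macrophages, at -0.50 ± 0.10 (the authors' deposited table, adjusted p = 7.47e-06). Plekhh3, next to Tubg2, had means of 177 in osteoclasts and 42.1 in dendritic cells, a log2 fold change of 2.04 ± 0.25 (the authors' deposited table, adjusted p = 1.07e-14).

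Genes that work with gamma tubulin were called about as often as all genes in the comparisons with dendritic cells, and most of the calls were lower in dendritic cells. The list holds the Tubgcp proteins and other ring subunits, their recruiters and the augmin (HAUS) complex, 24 genes in all. In osteoclasts against dendritic cells 8 of the 24 were higher and 1 lower, beside 16.8% and 20.1% of all genes, with a median log2 fold change of 0.21 against -0.05 over all genes tested. Tubgcp6 and Tubgcp4, ring subunits, were higher in osteoclasts by 0.72 ± 0.10 and 0.84 ± 0.14 in the authors' deposited table (adjusted p = 5.28e-11 and 5.70e-08). Haus8, an augmin subunit, was lower in osteoclasts, at -1.20 ± 0.16 (the authors' deposited table, adjusted p = 1.80e-13). In dendritic cells against macrophages 7 of the 24 were lower and 2 higher, beside 16.4% and 20.3% of all genes, with a median of -0.22 against 0.05 over all genes tested. Tubgcp6 was lower in dendritic cells, at -0.64 ± 0.10, and so was Ninl, a centrosomal ninein-like protein, at -1.62 ± 0.21 in the authors' deposited table (adjusted p = 7.77e-09 and 2.32e-13). Haus8 and the small ring subunit Mzt2 were higher in dendritic cells, by 1.14 ± 0.16 and 0.49 ± 0.16 in the authors' deposited table (adjusted p = 2.52e-12 and 0.00845). These 2 comparisons share the dendritic libraries.

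Against macrophages, where Tubg1 itself was higher in osteoclasts, 2 of the 24 were higher and 1 lower, fewer than the 29.3% of all genes called, with a median of 0.04 against -0.03 over all genes tested. Cdk5rap2, which activates ring complexes at centrosomes, was higher in osteoclasts by 0.41 ± 0.16 and the augmin subunit Haus7 by 0.43 ± 0.17 in the authors' deposited table (adjusted p = 0.0409 and 0.0362). Ninl was lower in osteoclasts, at -1.25 ± 0.21 (the authors' deposited table, adjusted p = 3.76e-08).

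Chaperones and cofactors that fold and assemble tubulin included genes that were higher in osteoclasts than in macrophages and none called as lower. Of the 23 tested 9 were higher and 0 lower, beside 14.5% and 14.7% of all genes, with a median log2 fold change of 0.20 against -0.03 over all genes tested. Cct2 and Cct3, subunits of the chaperonin that folds new tubulin, were higher by 0.49 ± 0.08 and 0.82 ± 0.16 in the authors' deposited table (adjusted p = 5.27e-08 and 5.38e-06). Against dendritic cells 5 of 23 were higher in osteoclasts and 3 lower, with a median of 0.16, and this number of calls is near the 36.9% of all genes. Cct2 and Cct6a were higher in osteoclasts by 0.34 ± 0.08 and 0.57 ± 0.15, and the prefoldin subunit Pfdn5 was lower, at -0.49 ± 0.15 (the authors' deposited table, adjusted p = 0.000127, 0.000427 and 0.00323). In dendritic cells against macrophages 4 of 23 were higher and 2 lower, beside 20.3% and 16.4% of all genes. These calls are fewer than the 36.7% of all genes called in that comparison. Among them were Tcp1 at 0.48 ± 0.12 and Tbcel at -0.55 ± 0.12 (the authors' deposited table, adjusted p = 0.000200 and 2.53e-05).

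Enzymes that act on alpha tubulin included some that were higher and some that were lower in every comparison. Of 18 tested, 2 were higher and 4 lower in osteoclasts than in macrophages, 6 higher and 4 lower in osteoclasts than in dendritic cells, and 2 higher and 8 lower in dendritic cells than in macrophages. Over all genes the called shares were 29.3%, 36.9% and 36.7% in the same 3 comparisons, and nothing particular to the enzymes was tested. Ttll11, which lengthens glutamate side chains on the tail, had means of 27.0 in osteoclasts, 80.9 in dendritic cells and 1.70 in macrophages. Its log2 fold change in the authors' deposited table was 3.61 ± 0.50 for osteoclasts over macrophages and -1.57 ± 0.26 for osteoclasts over dendritic cells (adjusted p = 2.87e-11 and 9.19e-09). Svbp, the partner without which the vasohibins do not cut off the final tyrosine, was lower in osteoclasts than in macrophages and dendritic cells, at -0.54 ± 0.14 and -0.67 ± 0.14 (the authors' deposited table, adjusted p = 0.000996 and 1.37e-05). Vash2, a vasohibin, had means of 91.0 in osteoclasts and 23.5 in dendritic cells, a log2 fold change of 1.91 ± 0.31 (the authors' deposited table, adjusted p = 1.07e-08). The other vasohibin, Vash1, ran the other way, with means of 36.4 in osteoclasts, 116 in dendritic cells and 49.4 in macrophages. For dendritic cells over macrophages its log2 fold change was 1.19 ± 0.42 (the authors' deposited table, adjusted p = 0.0156). Sirt2, an alpha tubulin deacetylase, was lower in osteoclasts than in macrophages, at -0.56 ± 0.15 (the authors' deposited table, adjusted p = 0.00145). In dendritic cells against macrophages, the polyglutamylase subunits Tpgs2 and Ttll1 were lower, at -1.04 ± 0.17 and -0.72 ± 0.13 (the authors' deposited table, adjusted p = 6.00e-09 and 3.31e-07).

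Among regulators of microtubule dynamics 1 of 13 was higher and 3 lower in osteoclasts than in macrophages, 3 of 15 higher and 1 lower in osteoclasts than in dendritic cells, and 1 of 15 higher and 2 lower in dendritic cells than in macrophages. Over all genes 29.3%, 36.9% and 36.7% were called in the same 3 comparisons, so the first count is near the background and the others are below it. Clip1, which tracks growing plus ends and binds the tyrosine-ended tail, had means of 3534 in osteoclasts, 1623 in dendritic cells and 4621 in macrophages. Its log2 fold change in the authors' deposited table was 1.12 ± 0.15 for osteoclasts over dendritic cells and -1.50 ± 0.15 for dendritic cells over macrophages (adjusted p = 2.53e-13 and 1.61e-23). Mapre3, the plus-end protein EB3, was lower in osteoclasts than in macrophages and in dendritic cells, at -0.68 ± 0.21 and -1.81 ± 0.21 (the authors' deposited table, adjusted p = 0.00629 and 8.96e-17). Clasp1, which rescues shrinking microtubules, was higher in osteoclasts than in macrophages by 0.62 ± 0.13, while its paralog Clasp2 was lower, at -0.54 ± 0.16 (the authors' deposited table, adjusted p = 1.84e-05 and 0.00350).

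Of the other tubulins, 2 of 9 were higher in osteoclasts than in macrophages, 2 of 10 lower in osteoclasts than in dendritic cells and 2 of 9 higher in dendritic cells than in macrophages, beside the same shares over all genes. Tubb3, the beta tubulin of neurons, had a mean of 8.42 in dendritic cells, 3.99 in osteoclasts and was listed at 0 in macrophages. Tubb1, the platelet beta tubulin and also 1 of the 8 platelet markers, had means of 1.5 in osteoclasts, 13.8 in dendritic cells and 3.14 in macrophages. Its log2 fold change in the authors' deposited table was -2.76 ± 0.74 for osteoclasts over dendritic cells (adjusted p = 0.000767).

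**Figure D5:**
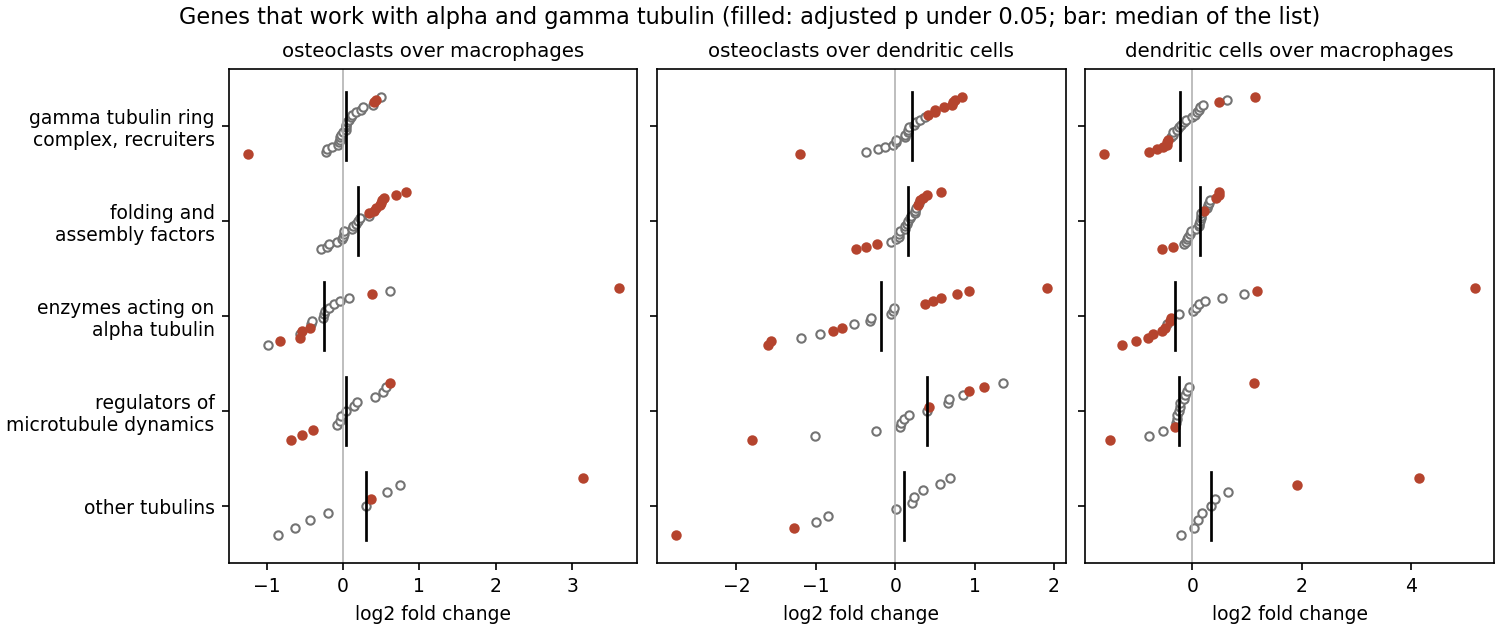
Deposited log2 fold changes of the genes tested in 5 lists of genes that work with the alpha and gamma tubulins, for the 3 comparisons; filled points have adjusted p under 0.05 and the bar is the list's median. Of 24 genes in the gamma tubulin list, 8 are higher and 1 lower in osteoclasts over dendritic cells, and 2 are higher and 7 lower in dendritic cells over macrophages.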

How the data were processed

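RNA from 3 cell types, 4 libraries each, was sequenced as single reads of 50 bases. The submitters' processing notes name TopHat2, Bowtie2, bcl2fastq, DESeq2 2.13, Cufflinks 2.1.1 and GRCm38, with no roles given. Per the file headers, the deposited table of 46072 genes has 3 kinds of columns for a pair of cell types: the authors' means (other values, taken from their digits to be counts divided by size factors), log2 fold changes, and p-values raw and adjusted. Its test was used as deposited, since it has no column per library and no count model could be fitted. Each standard error is the size of the fold change over the normal quantile that its p-value corresponds to, which takes the test as a Wald test. CPM is a gene's share of its cell type's summed means, scaled as usual. A symbol matched 45138 identifiers. Of the list genes, Matcap matched none.

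Whole reads per library were recovered from the means of 15 digits and used only where a single set fitted. The search was tested on reads simulated at means of up to 1000, below the 1140 of Tubg1 in osteoclasts. The simulation used the same size factors as the search, so it could not show errors in them. P-values rest on the spread between libraries, 4 per cell type, from 4 marrow extractions per the labels. How the deposited test estimated that spread, and whether it used the shared mouse, is not stated. The implied standard errors of Tuba1a were nearly equal in the 3 comparisons (0.2624, 0.2616 and 0.2621). The deposited p-values may therefore not reflect the spread of only the 2 groups compared. Members and lists were chosen with earlier results of these data known. Named genes are all members, up to 4 called genes per list and comparison (2 higher and 2 lower, by smallest p), neighbours within 5 kb, 3 genes of like pattern for Tuba1c, Tuba4a and Tuba8, and markers. Genes compared for likeness had a mean of at least 100 in the highest cell type and 1 in the lowest. Python 3.11.15, numpy 2.4.6, pandas 2.3.3 and scipy 1.17.1 were used. Alternatives were other adjustments, filters, scalings, thresholds, length measures and left-out libraries. The coding ends of Tuba1a and Tuba1b are not reported here.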

Additional observations from a re-analysis of the deposited data

How the results depend on the processing

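Of 151 checks of the main results, 136 were counted as keeping their direction, side of the threshold or size. That count includes small changes in the number of members called. For osteoclasts over macrophages, the 3 members called higher became 4 with totals made equal and 2 at adjusted p under 0.01. Swapping in the log2 ratio of the means left the authors' calls in place, so those calls could not change. Calls among osteoclasts against dendritic cells changed most: 2 members were lower when only genes of at least 1 CPM were adjusted, and 1 was higher at adjusted p under 0.01. Among single genes, Tuba1a was called at 0.65 (log2, adjusted p = 0.0461) for osteoclasts over macrophages with totals made equal. Tubg1 missed 0.01 in both osteoclast comparisons, and Tuba4a missed it against dendritic cells but not against macrophages. The Tuba1 trio's share was 65.2%, 68.6% and 69.1% in osteoclasts, dendritic cells and macrophages with no length correction, 77.2%, 79.6% and 80.3% over all exons, and 85.5%, 88.3% and 88.1% over windows found in 1 gene. For dendritic cells over macrophages, Tuba1c and Tubg1, which were not called, turned to -0.15 and -0.11 with totals made equal and to -0.0753 and -0.0370 with upper-quartile scaling, and the library difference of Tubg1 (19.0) became -51.6 normalised reads. Totals made equal moved all log2 values by 0.19 for osteoclasts over dendritic cells and by -0.15 for dendritic cells over macrophages, and the share of calls that were higher became 61.4% instead of 45.4% and 42.8% instead of 55.4%. Leaving out a library gave Tubg1 differences for dendritic cells minus macrophages from -80.1 to 80.9 and Tubg2 differences for osteoclasts minus dendritic cells from -0.368 to 1.39, with no exact test passing. No paired analysis was possible because the table gives means and the recovered libraries carry no replicate number. Depth limits Tubg2 and Tuba8 outside dendritic cells, at a few reads per library. The cause of these changes was not tested.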
